A study of Solanum tuberosum with 72 samples.

Results

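The question was where the transcript response of potato seedlings to cold differed between leaf and root. It was addressed with 36 of the 72 spotted cDNA microarrays of the series, those titled leaf or root under cold stress or under control stress. For each clone on the array the cold effect in a tissue was the log2 ratio on cold arrays minus that on no-stress arrays, and the quantity tested was the cold effect in leaf minus the cold effect in root. It was taken at 3, 9 and 27 h and as the mean over these times. A positive difference is called higher in leaf, whichever tissue had moved.

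All plants were Solanum tuberosum seedlings of the variety Gilroy, raised from true seed for 5 weeks at 25 °C with 16 h of light and 8 h of dark on rafts over hydroponic medium. Cold plants received medium chilled to 4 °C and stood on ice, and no-stress plants had their medium changed as well. The 12 groups were leaf cold, leaf no stress, root cold and root no stress, each at 3, 9 and 27 h and each with 3 arrays. Each sample pooled 6 plants from 2 boxes, the labels name 3 independent runs of the experiment, and the tissue labelled leaf was the aerial tissue of the seedling.

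Every array set Cy3-labelled RNA of cold or no-stress plants against Cy5-labelled RNA pooled from 6 boxes of control plants, of the array's own tissue and time, without a dye swap. Positive values were read as higher in the Cy3 sample. That direction is likely and not settled, because the table does not state it, and a reversed ratio would make every higher a lower. Since each ratio lies within 1 tissue, no level could be compared between leaf and root, and the tissue labels could not be checked by marker levels. In pooled tissue, fewer cells of a type and less RNA per cell cannot be told apart.

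Low temperature stiffens membranes and slows enzymes. Plant cells register it through calcium signals and kinase cascades, which act on transcription factors and then on genes of sugar metabolism, cell walls, respiration and protein protection. Leaves hold the photosynthetic machinery and export sucrose, while roots live on the sucrose they import, so a shared cold signal meets a different metabolism in each organ.

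The arrays gave values for 8740 to 10605 of 11037 clones. Correlations between the 3 arrays of a group were 0.65 to 0.86 in leaf cold and 0.77 to 0.91 in root cold. They were lower on the no-stress arrays, at 0.16 to 0.47 in leaf and 0.34 to 0.67 in root. Of the clones with values, 357 carried the name of 1 gene, together 195 genes, and 10156 had no annotation, so most of the clones that differed cannot be named here. The number of arrays limits the precision.

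Most clones that differed between the tissues at 3 h were higher in leaf. By 27 h most clones that differed had a cold effect that was called in root alone. At 3 h, 633 of 8710 clones tested (7.27%) differed between leaf and root in limma at an adjusted p below 0.05, and 79.1% of them were higher in leaf: 501 clones (5.75% of those tested) against 132 lower (1.52%). The 132 were 86 without leaf no stress replicate 3 and 82 without root no stress replicate 3. At 9 h, 829 of 8499 clones (9.75%) differed, 373 higher (4.39%) and 456 lower in leaf (5.37%). At 27 h, 1284 of 8655 (14.8%) differed, 602 higher (6.96%) and 682 lower (7.88%). Averaged over the times, 1628 of 8079 clones (20.2%) differed, 856 higher (10.6%) and 772 lower (9.56%). The median difference over all clones lay between -0.024 and 0.022 at the single times. Of the named clones tested, 22 were called at 3 h (7.75%), 33 at 9 h (11.6%), 47 at 27 h (16.2%) and 66 averaged (24.7%).

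Which tissue moved changed over the day. Of the 633 clones that differed at 3 h, 293 (46.3%) had a called cold effect in leaf alone and 235 (37.1%) in root alone. Since most of these clones were higher in leaf, the leaf-alone class was mostly up in cold leaf (241, with 52 down) and the root-alone class mostly down in cold root (182, with 53 up), as the sign of the difference fixes. A further 52 clones had called effects in opposite directions, of which 46 were up in leaf and down in root. At 27 h the root-alone class held 775 of 1284 clones (60.4%), with 461 up and 314 down in cold root, and the leaf-alone class held 242 (18.8%). At 9 h the shares lay between these, with 299 (36.1%) in leaf alone and 352 (42.5%) in root alone. The number of clones with a called cold effect in root went from 1310 at 3 h (14.4%) to 3549 at 27 h (39.7%), and in leaf from 1750 (18.6%) to 2238 (23.2%). At 9 h it was 2242 in leaf (23.8%) and 2401 in root (27.1%), and averaged over the times it was 3807 in leaf (42.6%) and 3739 in root (43.9%). For scale, the averaged difference between the tissues was called for 1.63% of clones under heat and 4.13% under salt, comparisons that share the no-stress arrays with this one.

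**Figure D1:**
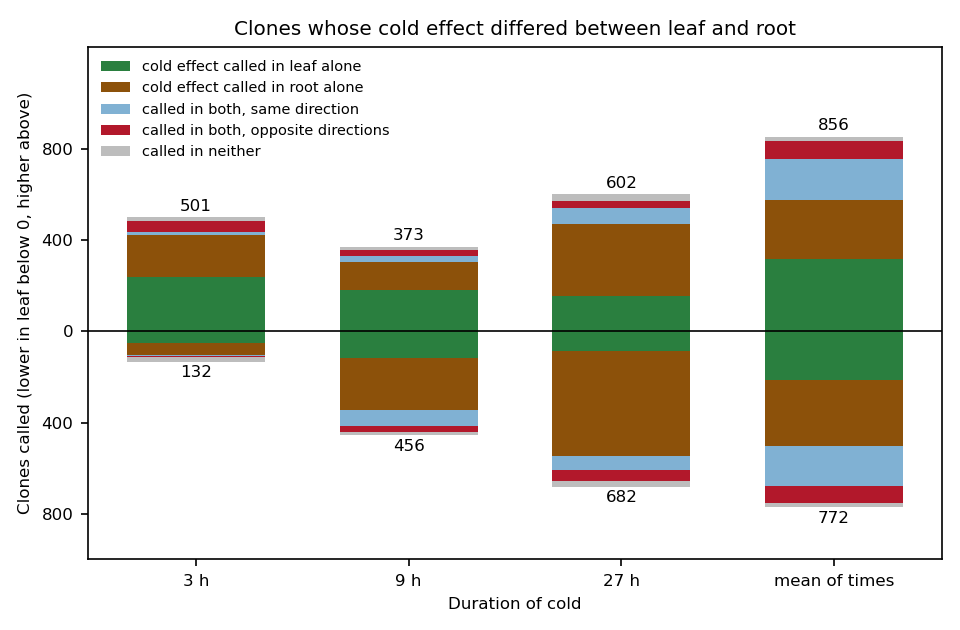
Number of clones whose cold effect differed between leaf and root at each time, split by the tissue in which the cold effect itself was called. Clones higher in leaf are drawn above 0 and clones lower in leaf below 0. At 3 h 501 lie above and 132 below, and at 27 h the effect called in root alone is the largest class with 775 clones.

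Most clones with an effect in both tissues moved the same way. At 3 h, 477 clones had a called cold effect in leaf and in root, and 425 of them (89.1%) had the same sign. At 27 h this was 1198 of 1278 (93.7%). As a description across clones, which share arrays and are not independent, the correlation of the leaf effect with the root effect was 0.37 at 3 h, 0.55 at 9 h and 0.56 at 27 h. Of the 8079 clones tested at every time, 71 were called at all 3 times, 55 of them in a single direction (44 higher and 11 lower in leaf).

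**Figure D2:**
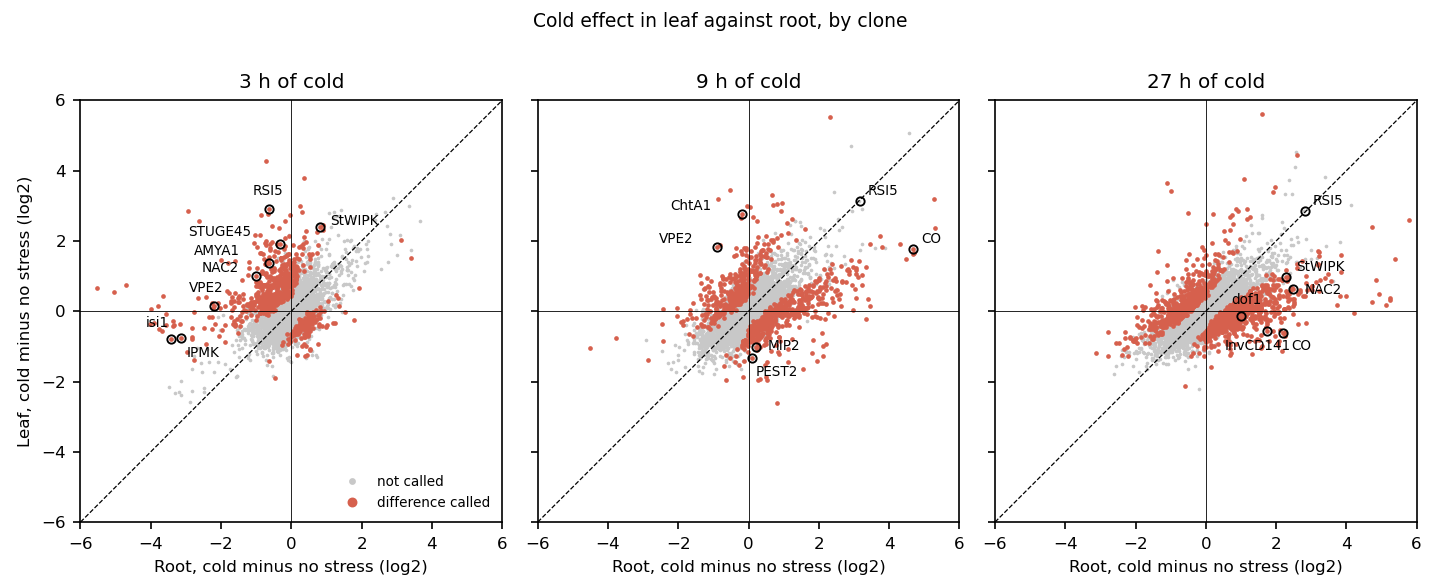
Cold effect in leaf (vertical axis, log2) against cold effect in root (horizontal axis, log2) for each clone at 3, 9 and 27 h, 1 panel a time, with the clones that differed between the tissues coloured. The correlation is 0.37 at 3 h and 0.56 at 27 h, and the SD of the root effects over clones is 0.492 at 3 h and 0.702 at 27 h, against 0.486 and 0.507 for the leaf effects.

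Of the clones higher in leaf at 3 h, 469 were tested at every time. Their median cold effect in leaf was 0.60, 0.71 and 0.40 at 3, 9 and 27 h, and in root it was -0.54, 0.41 and 0.44. The 3 h medians describe the values that chose these clones. At 9 h, 92 were called higher in leaf again and 23 lower, and at 27 h 66 were higher and 59 lower. The change of the difference from 3 to 27 h was called for 1037 of 8376 clones (12.4%), 400 toward leaf (4.78%) and 637 toward root (7.61%). The 400 were 259 without leaf cold replicate 1 at 3 h and 256 without root no stress replicate 3 at 3 h. Of the 469 clones, 230 were among those that changed toward root, a count that includes the 3 h values that chose them.

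RSI5 showed a leaf response that came first and a root response that caught up. On the leaf cold arrays at 3 h its log2 ratios were 3.84, 2.57 and 2.45, and on the root cold arrays -0.45, -0.26 and -0.03. On the no-stress arrays of that time they were 0.35, -0.11 and -0.07 in leaf and 0.20, 0.26 and 0.69 in root. Only the leaf cold arrays stood high, and they overlapped no other group. The difference at 3 h was 3.53 (SE 0.38, adjusted p = 3.3e-07, limma), an 11.6-fold larger ratio in leaf. At 9 h the cold arrays read 2.95, 4.11 and 3.07 in leaf and 3.38, 3.36 and 3.16 in root, and the difference was -0.03 (SE 0.38). At 27 h it was 0.03 (SE 0.38), so the difference changed by -3.50 from 3 to 27 h (SE 0.54, adjusted p = 7.48e-05).

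STUGE45 and AMYA1, of the cell wall and starch breakdown lists, were also higher in leaf at 3 h. At that time 1 of 9 clones of the cell wall list and 1 of 6 of starch breakdown were called. For starch synthesis it was 1 of 8, and for sucrose metabolism none of 7. Over all clones tested at 3 h, 7.27% were called and 5.75% were higher in leaf. With so few clones, a count of 1 does not set a list apart from that share. STUGE45, a UDP-glucose epimerase that supplies UDP-galactose for cell wall polymers, had log2 ratios of 2.38, 1.68 and 1.88 in cold leaf at 3 h and 0.14, -0.34 and -0.07 in cold root. The groups did not overlap, and the difference was 2.24 (SE 0.42, adjusted p = 0.00102). At 27 h the root arrays were up as well, at 1.80, 1.88 and 0.73, and the difference of 0.93 (SE 0.42, adjusted p = 0.148) did not pass. At 9 h it was not tested, since only 1 root no-stress array had a value. AMYA1, an alpha-amylase that cuts starch, read 1.34, 1.21 and 0.68 in cold leaf at 3 h against -0.78, -0.56 and -0.08 in cold root. The 3 leaf arrays lay above all root arrays, with a difference of 1.99 (SE 0.39, adjusted p = 0.00127). Its averaged difference was 1.16 (SE 0.22, adjusted p = 0.000399), from a cold effect of 1.36 in leaf and 0.20 in root.

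For isi1 and IPMK the difference at 3 h came from a fall in root. The gene isi1 is a homologue of Arabidopsis IMPAIRED SUCROSE INDUCTION 1, which takes part in the response to sugars. Its log2 ratios at 3 h were -2.84, -3.56 and -3.64 in cold root and -1.43, -0.52 and -0.44 in cold leaf, with all no-stress arrays between -0.09 and 0.18. Cold root lay below every leaf array, and the difference was 2.62 (SE 0.50, adjusted p = 0.000883). The cold effect at 3 h passed in root (-3.43, SE 0.35, adjusted p = 4.66e-08), and in leaf it was -0.80 (SE 0.35, adjusted p = 0.112). IPMK, an inositol polyphosphate multikinase, read -2.74, -3.32 and -3.19 in cold root at 3 h, while the leaf cold arrays with a value read -0.89 and -0.47. The 3 h difference was 2.38 (SE 0.38, adjusted p = 0.000164), whereas by 27 h it was 0.10 (SE 0.36), a change of -2.27 (SE 0.52, adjusted p = 0.00523). With all 72 arrays in the fit that change no longer passed (adjusted p = 0.0532), nor did the averaged difference of IPMK of 0.77 (adjusted p = 0.0087, then 0.0809).

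A 14-3-3 gene, which codes for an adaptor that binds phosphorylated proteins, followed the order of RSI5 at smaller size. In cold leaf it stood at 0.72, 0.96 and 0.58 at 3 h, and in cold root at -0.12, -0.19 and -0.50, without overlap. The 3 h difference was 1.19 (SE 0.20, adjusted p = 0.00024), whereas by 27 h it was -0.07 (SE 0.20, adjusted p = 0.861). CCoAOMT, a methyltransferase of lignin precursors, read 1.21, 1.21 and 1.34 in cold leaf at 3 h and 0.12, -0.19 and -0.65 in cold root. Its difference was 1.43 at 3 h (SE 0.34, adjusted p = 0.00693) and 1.04 averaged (SE 0.19, adjusted p = 0.000276), since its cold effect averaged 1.92 in leaf and 0.89 in root.

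VPE2 and ChtA1 were higher in leaf most clearly at 9 h. VPE2 is a vacuolar processing enzyme, a protease that matures vacuolar proteins. At 9 h it read 2.24, 2.24 and 2.29 in cold leaf and 0.09, -0.39 and -0.71 in cold root, while no-stress arrays reached 0.93 in leaf and 1.27 in root. The cold leaf arrays lay above all others, and the difference was 2.73 (SE 0.47, adjusted p = 0.000509). At 3 h it was 2.35 (SE 0.53, adjusted p = 0.0057), with root values on 2 arrays of each group, and it did not pass without root no stress replicate 3 (1.92, adjusted p = 0.0589). At 27 h it was 1.39 (SE 0.50, adjusted p = 0.0626). Averaged, the difference was 2.16 (SE 0.29, adjusted p = 6.43e-06).

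ChtA1, a chitinase of the defence response, read 3.08, 3.36 and 1.76 in cold leaf at 9 h and -0.38, -1.43 and -0.35 in cold root. No cold root array reached the lowest cold leaf array, and the difference was 2.96 (SE 0.77, adjusted p = 0.0123). At 27 h cold leaf stood at 4.42, 4.24 and 4.47 and cold root at 3.21, 2.12 and 0.62, which spread widely, and the difference of 1.95 (SE 0.77) had an adjusted p of 0.0899. The averaged difference was 2.04 (SE 0.44, adjusted p = 0.00131), and another clone of the gene gave 2.01.

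CO had the strongest averaged difference toward root of the genes described here, at -1.70 (SE 0.20, adjusted p = 6.59e-07). It codes for a regulator of the CONSTANS type, a family known for the control of flowering and tuberisation by day length. At 3 h its log2 ratios were 1.42, 0.79 and 0.89 in cold leaf and 0.72, 0.69 and 1.02 in cold root, which overlap, and the difference was 0.62 (SE 0.35, adjusted p = 0.321). At 9 h cold leaf read 1.94, 2.30 and 0.98 and cold root 4.58, 5.03 and 5.11. All root cold arrays were far above the leaf cold arrays, and the difference was -2.90 (SE 0.35, adjusted p = 5.28e-06), a 7.46-fold larger ratio in root. At 27 h cold leaf was at -1.27, -0.72 and -0.43 and cold root at 2.85, 2.26 and 2.1, with a difference of -2.83 (SE 0.35, adjusted p = 3.39e-06). The cold effect in leaf at 27 h was -0.62 (SE 0.25, adjusted p = 0.0702) and did not pass. The difference changed by -3.45 from 3 to 27 h (SE 0.50, adjusted p = 3.18e-05).

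**Figure D3:**
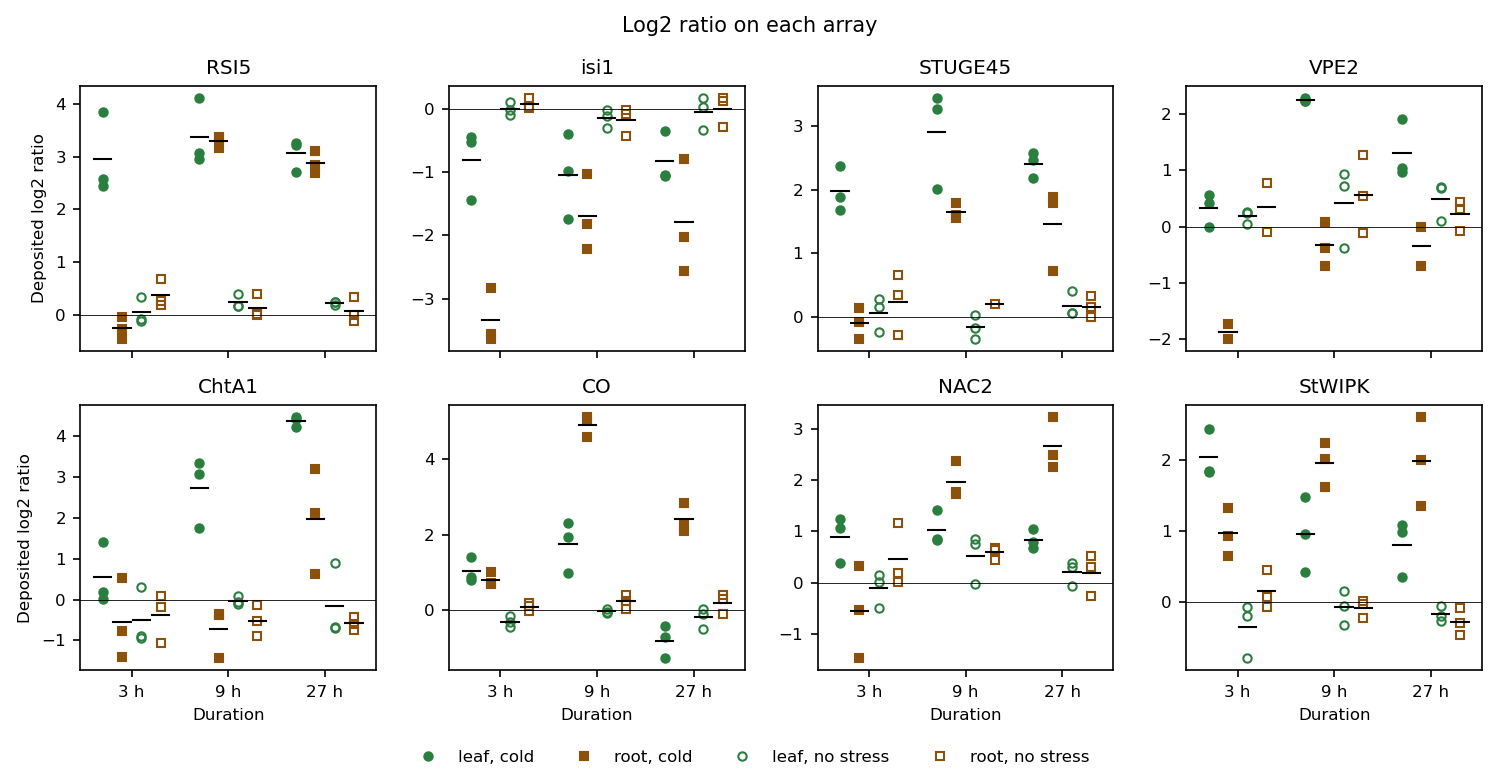
Log2 ratio on each array for 8 genes, with 1 point an array and groups of leaf cold, leaf no stress, root cold and root no stress at 3, 9 and 27 h. RSI5 is high on the leaf cold arrays alone at 3 h and on cold arrays of both tissues from 9 h, while CO reaches 4.58 to 5.11 in cold root at 9 h.

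The other genes lower in leaf included enzymes of the cell wall and of sucrose cleavage. InvCD141, an invertase that splits sucrose, read 2.16, 2.29 and 2.25 in cold root at 27 h, above its no-stress arrays at 0.29, 0.99 and 0.23. In cold leaf it read -1.48, -0.31 and -0.73. The cold effect at 27 h passed in root (1.73, adjusted p = 0.00243, limma) and not in leaf (-0.56, adjusted p = 0.401). The difference was -2.29 (SE 0.63, adjusted p = 0.0137). PEST2, a pectin esterase, fell in leaf at 9 h: cold leaf stood at -1.17, -1.69 and -1.62 and leaf no stress at -0.10, -0.32 and -0.09. Cold root (-1.09, -0.54 and -0.57) overlapped root no stress (-0.92, -1.12 and -0.43), and the difference was -1.41 (SE 0.26, adjusted p = 0.00059). For xth1, a xyloglucan endotransglucosylase that remodels the wall, no single time passed, and the averaged difference was -1.16 (SE 0.30, adjusted p = 0.00642), with cold effects of 1.06 in leaf and 2.22 in root.

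MIP2, a membrane intrinsic protein of the aquaporin family, read -0.64, -0.75 and -0.61 in cold leaf at 9 h and 0.46, 0.29 and 0.16 in cold root, without overlap. The difference was -1.22 (SE 0.26, adjusted p = 0.00294), and averaged it was -0.77 (SE 0.15, adjusted p = 0.000515). GBSS, the granule-bound starch synthase that makes amylose, rose in root at 9 h by 1.10 (SE 0.25, adjusted p = 0.00144), with cold root at 0.45, 0.44 and 1.03. Cold leaf spread from -1.22 to 0.09, and the difference was -1.47 (SE 0.36, adjusted p = 0.00791). The other GBSS clone gave -0.69. With only the 12 arrays of that time in the fit the GBSS difference did not pass (adjusted p = 0.0542).

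For NAC2 and StWIPK the difference turned from leaf at 3 h to root at 27 h. NAC2, a transcription factor of the NAC family, read 1.24, 0.39 and 1.07 in cold leaf at 3 h and 0.33, -1.47 and -0.54 in cold root, so that every leaf array lay above every root array by a narrow margin. Its difference was 2.02 (SE 0.49, adjusted p = 0.00967), and with only the 12 arrays of that time the adjusted p was 0.0589. The cold effects of NAC2 at 3 h passed in opposite directions. They were 1.01 in leaf (adjusted p = 0.0424, limma) and -1.01 in root (adjusted p = 0.0495). At 27 h cold leaf read 0.67, 0.80 and 1.04 and cold root 2.5, 2.26 and 3.23, and the difference was -1.85 (SE 0.49, adjusted p = 0.012). The change of -3.87 (SE 0.70, adjusted p = 0.000603) was larger in size than those of RSI5 and CO.

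StWIPK, a wound-induced MAP kinase of stress signalling, read 2.45, 1.85 and 1.83 in cold leaf at 3 h and 0.65, 1.33 and 0.93 in cold root. Leaf was higher on every array, with a difference of 1.57 (SE 0.39, adjusted p = 0.0105). At 27 h cold leaf read 1.09, 0.99 and 0.35 and cold root 2.61, 2.0 and 1.36. Root was then the higher, with a difference of -1.30 (SE 0.39, adjusted p = 0.0235). That call at 27 h was lost without leaf cold replicate 3 (-1.07, adjusted p = 0.0775), root cold replicate 1 (-0.98, adjusted p = 0.0961) or root no stress replicate 3 (-1.20, adjusted p = 0.0596). The change of -2.87 (SE 0.55, adjusted p = 0.000979) passed without any single array.

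METK2, a synthetase of S-adenosylmethionine, the cell's methyl donor, stood at 0.44, 0.92 and 0.50 in cold leaf at 3 h and at -0.52, -0.14 and -0.65 in cold root. The groups did not overlap, but the difference of 1.06 had an adjusted p of 0.0729. Against the no-stress arrays the cold effect at 3 h was 1.08 in leaf (adjusted p = 0.00336, limma). In root it was 0.02 (adjusted p = 0.97), so cold root had not fallen. At 27 h cold leaf read 0.30, 0.52 and 0.12 and cold root 1.79, 1.21 and 1.86. The difference of -1.15 (adjusted p = 0.031) was lost without any 1 of 7 arrays, with adjusted p up to 0.0778. The change of -2.21 (SE 0.51, adjusted p = 0.00502) and that of the other METK2 clone of -1.64 (adjusted p = 0.0183) passed.

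In 4 named genes the averaged cold effect passed in opposite directions in the tissues. Of these 4, only VPE2 had opposite effects that passed at a single time, 9 h. They were 1.82 in leaf (adjusted p = 0.000233, limma) and -0.9 in root (adjusted p = 0.0465). For cyp, IAA3 and PHA2 the leaf and root effects passed at different times. Averaged, VPE2 rose by 0.93 in leaf and changed by -1.23 in root. The cyclophilin cyp, a prolyl isomerase that helps proteins fold, rose by 0.52 in leaf and changed by -0.51 in root, a difference of 1.03 (SE 0.18, adjusted p = 0.000142), and another clone gave 1.17. The root effect of cyp passed at 3 h (-1.37) and its leaf effect at 9 h (1.05). Its cold root arrays at 3 h read -0.86, -1.33 and -1.58 and its cold leaf arrays 0.13, 0.28 and 0.36. Leaf and root did not overlap there, and at 9 h the leaf arrays were again the higher, at 1.34, 1.02 and 0.98 against -0.04, 0.24 and 0.20.

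Averaged over the times, the other 2 genes went down in leaf and up in root. IAA3, an Aux/IAA repressor of auxin signalling, had cold effects of -0.44 in leaf and 0.35 in root, a difference of -0.79 (SE 0.14, adjusted p = 0.000156). At 9 h it read -0.77, -0.61 and -0.67 in cold leaf and 0.29, 0.08 and 0.11 in cold root, without overlap. The leaf effect of IAA3 passed at 9 h (-0.77) and 27 h (-0.57), and its root effect at 3 h (0.68). PHA2, a proton pump of the plasma membrane, had cold effects of -0.22 in leaf and 0.22 in root, a difference of -0.44 (SE 0.11, adjusted p = 0.00299). At 27 h its cold root arrays read 0.76, 0.62 and 0.42 and its cold leaf arrays -0.04, -0.16 and -0.23. The leaf effect of PHA2 passed at 9 h (-0.44) and its root effect at 27 h (0.38).

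**Figure D4:**
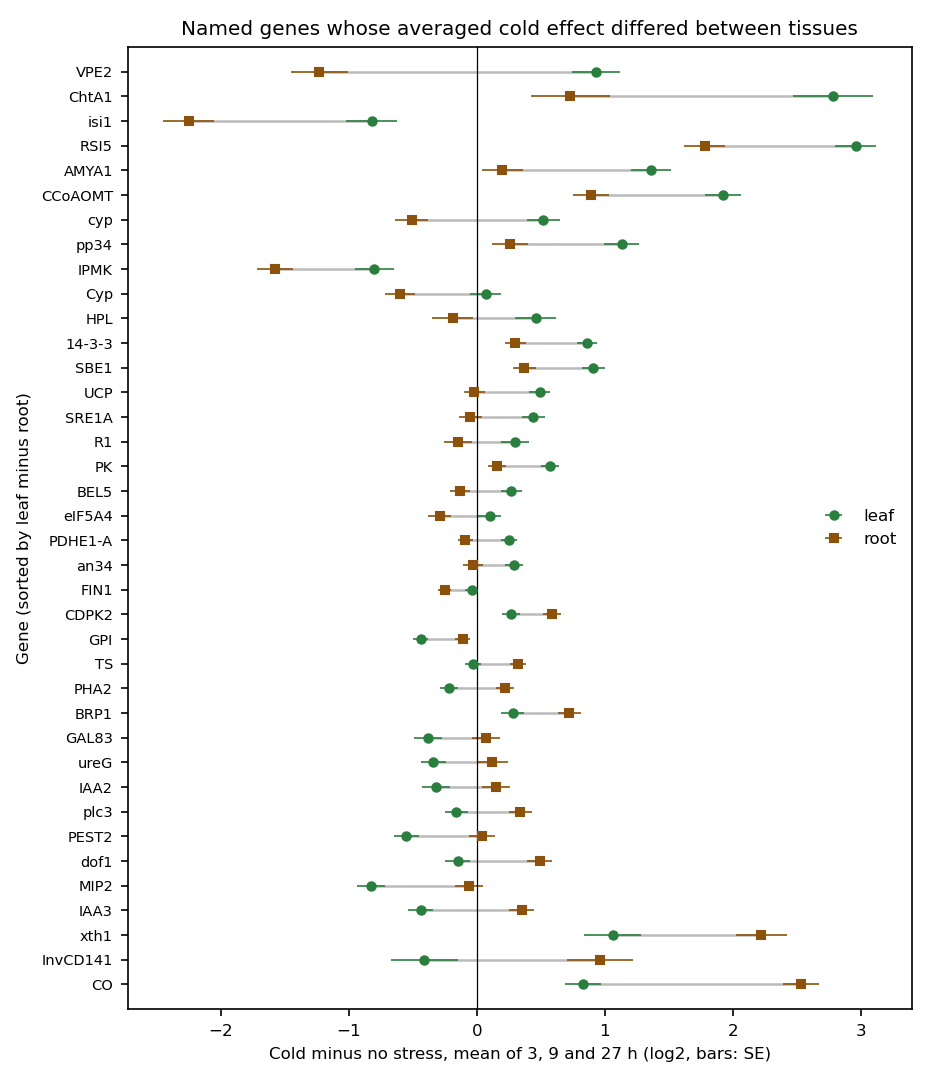
Cold effect in leaf (circles) and in root (squares), averaged over 3, 9 and 27 h, for 38 named genes. Values are log2, with bars of 1 SE of each tissue's effect, and genes are sorted by leaf minus root. Of the genes, 22 are higher in leaf, led by VPE2 with a difference of 2.16. The other 16 are lower in leaf, led by CO with a difference of -1.70.

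Of 167 named genes with a tested clone, 45 were called in the averaged difference, 28 higher and 17 lower in leaf. The genes were grouped into lists by function. Each list is read against all clones, of which 20.2% were called, 10.6% higher and 9.56% lower in leaf. The median difference over all clones was 0.01. Transcription regulators held 16 clones of 13 genes, with 1 higher in leaf (BEL5, a homeodomain factor, 0.40) and 5 lower. The lower ones were CO, IAA3, the Dof factor dof1 (-0.64, SE 0.14, adjusted p = 0.00124), IAA2 (-0.47, adjusted p = 0.0274) and 1 of 2 clones of STWRKY8 (-0.96). The median of the list was -0.12. At 27 h none of its 16 clones was higher in leaf and 6 were lower, beside 6.96% higher and 7.88% lower over all clones. There dof1 read 0.97, 0.77 and 0.71 in cold root and -0.21, -0.30 and -0.52 in cold leaf, with a difference of -1.15 (SE 0.24, adjusted p = 0.00179). STWRKY8 was named after its values were seen, as were FDH, FeS1, LAP, SAMDC, Stmet3-1, CS-B, PSBR, psbP, cab1 and PSBO.

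Lists of respiration, protein folding and defence held calls higher in leaf. Of 25 clones of mitochondrial respiration from 14 genes, 5 were higher and none lower, with a median of 0.13. The share of this list called in either direction was near the 20.2% of all clones. The 5 clones were both clones of UCP, an uncoupling protein (0.51 and 0.64), PDHE1-A, a subunit of pyruvate dehydrogenase (0.34), and 1 clone each of FDH, formate dehydrogenase (0.48), and FeS1 (0.31). At 27 h AOX, the alternative oxidase, went the other way, with cold root at 1.53 and 1.42 and cold leaf at -0.23, -0.11 and -0.09. Its difference of -1.35 (adjusted p = 0.0163) did not pass without root cold replicate 1 (-1.30, adjusted p = 0.058) or root no stress replicate 3 (-0.98, adjusted p = 0.11). The chaperone list held 11 clones, 4 higher and 1 lower, all of them clones of the cyclophilins cyp and Cyp. The lower clone, of Cyp, had a difference of -1.28 while 2 other clones of that gene gave 0.67 and 0.64, so clones of the same name disagree. Of 16 defence clones 5 were higher, 2 each of ChtA1 and HPL, a hydroperoxide lyase of oxylipin synthesis, and 1 of LAP, a leucine aminopeptidase (0.26). Without root cold replicate 3 at 9 h this count was 3, and the call of HPL (0.65, adjusted p = 0.04) was lost without any 1 of 21 arrays, with adjusted p up to 0.0711.

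Lists of carbon metabolism held calls in both directions. Of 6 starch breakdown clones 3 were higher in leaf (AMYA1 and both clones of R1, a glucan water dikinase), with a list median of 0.47. The R1 call (0.45, adjusted p = 0.0308) was lost without any 1 of 7 arrays. Of 8 starch synthesis clones only SBE1, a branching enzyme, was called (0.54, adjusted p = 0.00325), and with all 72 arrays in the fit its adjusted p was 0.0966. Of 7 sucrose clones only InvCD141 was called. None of the 6 clones of carbon reduction was called, with a median of 0.07 and medians of -0.63 in leaf and -0.78 in root. Of 11 glycolysis clones 3 were higher and 2 lower.

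At 27 h 6 of 13 glycolysis clones were higher in leaf and 1 was lower, beside 6.96% higher and 7.88% lower over all clones. The higher ones were PK, pyruvate kinase, and 5 of 6 tested clones of GAPDH, glyceraldehyde 3-phosphate dehydrogenase, at 0.71 to 0.97. The count of 6 was 3 without leaf no stress replicate 2 and 2 without root no stress replicate 1. The 5 GAPDH clones were 2 or 3 without any 1 of 6 arrays.

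Among enzymes of methionine, sulfur and polyamine metabolism, clones of SAMDC, METK2 and Stmet3-1 differed toward root at 27 h. Of 31 clones of 11 genes, 8 were lower in leaf, 1 was higher (CS-B, a cysteine synthase, 0.45) and 22 did not pass, beside 7.88% lower and 6.96% higher over all clones, and the list's median was -0.39. Averaged over the times only 2 of 28 clones were called, both lower. The 8 were 5 of 8 clones of SAMDC, the S-adenosylmethionine decarboxylase of polyamine synthesis, at -0.81 to -1.28, METK2, and 2 clones of Stmet3-1 at -0.98 and -0.92. The count of 8 lay between 3 and 5 without any 1 of 8 arrays at 27 h: leaf cold replicate 2 or 3, leaf no stress replicate 1 or 3, root cold replicate 1 or 3, and root no stress replicate 2 or 3. The count of 5 SAMDC clones was 3 without leaf cold replicate 2, leaf no stress replicate 3, root cold replicate 1 or 3, or root no stress replicate 3. The change from 3 to 27 h was called for 5 of the 8 SAMDC clones, at -1.18 to -1.86, beside 7.61% toward root over all clones. Clones of the same gene share arrays and are not independent.

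The smaller lists held few calls. Both called clones of the membrane transport list (of 6) were lower in leaf, MIP2 and PHA2. So were both called clones of the cell wall list (of 8), xth1 and PEST2. STUGE45 of that list, higher in leaf at 3 h (2.24), could not be tested in the averaged difference. The protein kinase list had 2 of 17 clones lower, GAL83, a subunit of the SnRK1 energy-sensing kinase (-0.44), and CDPK2, a calcium-dependent kinase (-0.32, adjusted p = 0.0261), a count that was 1 without any 1 of 10 arrays. The translation list had 2 of 8 clones higher, 1 without any 1 of 22 arrays. Of 9 redox clones 1 was higher, of 4 phenylpropanoid clones 1 was higher and 1 lower, of 2 14-3-3 clones 1 was higher, and neither of 2 photorespiration clones was called.

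The photosystem and light harvesting genes could hardly be compared, because leaf values were often missing. Of 15 clones with a value somewhere, leaf arrays gave 5 to 13 and root arrays 9 to 15, and 5 could be tested in the averaged difference. Of these 5, 1 clone of psbP (0.48) and 1 of PSBR (1.0), both subunits of photosystem II, were higher in leaf, a count that was 1 without any 1 of 22 arrays. Clones named PSBR disagree: averaged cold effects in leaf ran from -0.59 to 1.85 over the 3 tested, and in root at 27 h from -0.97 to 2.30 over 6, so the value of 1.0 holds for that clone and not for the gene. Over the clones tested in both tissues, the median cold effect was -0.70 in leaf and -0.72 in root at 27 h, and -0.59 and -0.52 averaged. Over all clones with a value, which differ between the tissues, the median of the list on each root cold array was -1.01 to -0.25 at 3 h, -1.25 to -0.60 at 9 h and -2.42 to -1.43 at 27 h, while root no-stress arrays lay between -0.28 and 0.30. Leaf cold arrays lay between -0.84 and 0.11 and leaf no-stress arrays between -0.18 and 0.40. All tested clones of cab1, a chlorophyll-binding protein of the light-harvesting antenna, were down in cold root at each time, with cold effects of -3.95 to -2.52, and both clones of PSBO, a subunit of the oxygen-evolving complex, had effects of -2.08 and -1.92 there at 27 h. For cab1 and PSBO no difference from leaf was tested, since too few leaf arrays had a value.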

How the data were processed

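The deposited series table holds log2 ratios that the authors had computed for every spot of each array. Per the labels, Cy3 marked the query and Cy5 the control reference. How the authors corrected background, normalized, and chose which spots to leave blank is not given in the sources used for this report. Between -1 and 1 the deposited log2 values match ratios rounded to 2 decimals (tolerance 0.0015), and array medians lay between -0.006 and 0.014.

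The spot order of the 32448 spots was read as 48 blocks of 26 by 26 with each clone at 2 spots, since all 905 annotated pairs carried 1 accession. The spots of a pair were averaged (median correlation 0.93 for annotated pairs and 0.80 for others). Gene names came from the platform's annotation, updated through a RefSeq gene table. No sequence is printed.

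Group means over the 36 arrays were fitted with limma 3.58.1 in R 4.3.3 (prior degrees of freedom 4.4), and p-values were adjusted by Benjamini-Hochberg over all clones tested. A clone was tested with at least 2 of 3 values in each group of a contrast, and called at an adjusted p under 0.05. The fit was tested on simulated data. The p-values rest on the spread between arrays within groups, pooled over the 12 groups for each clone and moderated across clones. A group with a wider spread was therefore tested with the pooled spread. The labels describe the 3 arrays of a group as independent runs.

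The members and gene lists were chosen with earlier results of these data known. Genes were named by a rule: the 12 highest and 12 lowest by averaged difference among those called, then 4 in each direction at each time, up to 6 called in opposite directions in the tissues, up to 2 per list and direction, and up to 6 by change from 3 to 27 h. A gene with several clones is represented by the clone with most values. Alternatives were other arrays in the fit, replicate blocks, no subtraction of no-stress arrays, array medians, 1 spot per clone, other filters, array weights, a trended prior, and leaving out arrays.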

Additional observations from a re-analysis of the deposited data

Results flagged for a closer look

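The cold effect differed between leaf and root, by the test of the difference itself, for 633 clones at 3 h, 829 at 9 h, 1284 at 27 h and 1628 averaged over the times, and the difference changed from 3 to 27 h for 1037. Among named genes, the averaged cold effect passed in opposite directions in the tissues for VPE2 (difference 2.16), cyp (1.03), IAA3 (-0.79) and PHA2 (-0.44). Of these genes, only VPE2 also had opposite effects that passed at a single time, 9 h. NAC2, not among them, had opposite effects that passed at 3 h, up in leaf and down in root. The difference changed over time for RSI5 (-3.50), IPMK (-2.27), CO (-3.45), NAC2 (-3.87), StWIPK (-2.87) and METK2 (-2.21). No group held enough arrays for a test of single outlying arrays. The cause of these differences was not tested.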

How the results depend on the processing

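Without subtracting the no-stress arrays, 1646 clones differed at 3 h (1011 higher and 635 lower in leaf, against 501 and 132), 2098 at 9 h, 2918 at 27 h, 3407 averaged and 2225 in the change. Array weights gave 2574 at 27 h and 1618 in the change, with weights from 0.26 to 15.99. Leaving out the arrays of 1 replicate number in every group, chosen after seeing the data, gave lower counts. Without number 1 these were 329 at 3 h, 400 at 9 h, 501 at 27 h and 296 in the change. Without number 2 they were 146, 162, 290 and 195 in that order, and 627 averaged. Without number 3 they were 263, 461, 805 and 480. The highest averaged count was 1137. Leaving out single arrays gave 437 to 652 at 3 h, 650 to 851 at 9 h, 908 to 1296 at 27 h, 1472 to 1759 averaged and 776 to 1095 in the change. Same-numbered cold and no-stress arrays deviated together (r above 0.1) in 15 of 18 pairs, all but those of leaf at 9 h, and 15 of 18 cold arrays were closest to the no-stress array of their own number. That is a hint of pairing by number from the data. Leaf and root arrays did so in 11 of 18. Since the labels do not tie a number to a run and not every pair passed, the fit without a block was kept. With the replicate block of tissue, time and number, 891, 1035 and 1533 clones differed at 3, 9 and 27 h, 1918 averaged and 1364 in the change; by number alone 659, 863, 1289, 1684 and 1077. The first block gave 227 lower in leaf at 3 h, against 132. The cause of these shifts was not tested. Of 103 calls of named genes, none reversed in the alternatives run, and 67 passed without any single array. In every alternative that tested the clone 23 passed, and some clones were not tested in some alternatives. Without replicate 1, 2 or 3 of every group 54, 74 and 47 were lost, where fewer arrays were fitted. The fit on 12 arrays of 1 time gives no averaged value or change.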

Other observations

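The heat and salt arrays of the series, fitted with the same no-stress arrays, allow the named genes to be set beside their cold values. The averaged leaf and root effects differed for 132 of 8103 clones under heat (1.63%) and for 331 of 8015 under salt (4.13%), in limma on all 72 arrays. UCP, the uncoupling protein, was higher in leaf under heat (0.42, adjusted p = 0.0459) and under salt (0.54, adjusted p = 0.00239), as it was under cold (0.51). The tissue that moved was not the same. Under heat and salt only a fall in root passed (-0.31 and -0.34), and under cold only a rise in leaf (0.49). IAA3 was lower in leaf under salt (-0.53, adjusted p = 0.0169). SI1 was higher in leaf under salt (0.55, adjusted p = 0.00897). RSI5 rose under salt in both tissues, by 1.97 in leaf and 1.90 in root, and its difference of 0.08 (adjusted p = 0.916) did not pass. For CO the difference was 0.38 under heat (adjusted p = 0.433) and 0.32 under salt (adjusted p = 0.467). VPE2 had 1.01 under heat (adjusted p = 0.0816) and 0.76 under salt (adjusted p = 0.18). These comparisons share the no-stress arrays with the cold comparison, so their values are not independent of it, and no test compared the stresses.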
